A study of Mus musculus with 40 samples.

Results

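The nuclear-encoded subunits of the mitochondrial respiratory chain were followed in whole mouse retinas with and without oxygen-induced retinopathy. Members were taken by gene symbol: the Nduf, Sdha to Sdhd, Uqcr, Cox4 to Cox8 and Atp5 families. Ndufa4l2, symbols with a pseudogene ending (-ps) and copies of a symbol were left out. Ndufb4c and Ndufa11b were kept by this rule, although GENCODE lists both as processed pseudogenes. The rule matched 87 of the 42037 gene symbols in the files. Of these, 84 passed the filter on low counts, out of 23495 genes tested. Cox7b2, Cox8c and Ndufa11b did not pass and had values above 0 in 25, 5 and 1 of the 40 libraries. The 87 members comprised 39 genes counted to complex I, these pseudogenes included. A further 4 were counted to complex II, 8 to complex III, 19 to complex IV and 17 to complex V.

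The study sequenced RNA from 40 retinas of C57BL/6J mice, 4 in each of 10 groups, collected on postnatal day 17 or 19 (P17 or P19). In oxygen-induced retinopathy (OIR), mouse pups breathe 75% oxygen from P7 to P12, which stops and prunes retinal vessels. On return to room air the poorly supplied retina becomes hypoxic and grows abnormal vessel tufts. OIR eyes received 1 µl of antibody into the vitreous on P14. Concentrations were 0.4 µg/µl for control IgG and for a bispecific antibody against both targets (B20.4.1_LC10). They were 0.2 µg/µl for the single antibodies, anti-VEGFA (B20.4.1.) and anti-ANG-2 (LC10). VEGFA is the main hypoxia-induced vessel growth factor, and ANG2 is an angiopoietin that destabilises vessels. The control group, nOIR, had no OIR, and the labels do not say whether those eyes were injected. Each sample was 1 whole retina, and nothing states which retinas came from 1 mouse, so the p-values measure the spread between these retinas.

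Complexes I to IV pass electrons from NADH and succinate to oxygen. Complexes I, III and IV, but not II, pump protons across the inner mitochondrial membrane, and complex V uses the proton gradient to make ATP. The core subunits carry the redox centres or the catalytic sites, while the many small accessory subunits stabilise and regulate the complexes. Photoreceptors hold dense mitochondria in their inner segments and use much of the oxygen that reaches the retina, and complex IV has isoforms that differ between tissues and with oxygen supply.

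The promoters of the 3 small subunits called below together with Cox4i2 are shown first, with 3 further members whose upstream sequence holds a nuclear respiratory factor motif. Cox4i2 itself had no entry in the promoter table. Each line gives the 120 bases before a RefSeq transcription start (GRCm38.p6), 5′ to 3′ on the gene's strand. Capitals mark GCGCATGC, the NRF1 motif, or CCGGAAGT, the GABPA (NRF2) motif, on either strand, and overlapping matches run together.
Cox6b1, chr7:30626115-30626234, minus strand: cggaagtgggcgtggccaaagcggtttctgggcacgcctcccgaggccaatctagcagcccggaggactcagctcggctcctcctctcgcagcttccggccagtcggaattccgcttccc
Ndufa5, chr6:24527691-24527810, minus strand: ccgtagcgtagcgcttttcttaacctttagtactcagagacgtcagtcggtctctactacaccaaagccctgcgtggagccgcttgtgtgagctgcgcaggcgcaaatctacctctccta
Uqcr11, chr10:80406822-80406941, minus strand: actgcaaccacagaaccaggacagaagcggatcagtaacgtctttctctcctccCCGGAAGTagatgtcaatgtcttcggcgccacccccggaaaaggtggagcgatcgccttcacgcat
Atp5k, chr5:108434400-108434519, minus strand: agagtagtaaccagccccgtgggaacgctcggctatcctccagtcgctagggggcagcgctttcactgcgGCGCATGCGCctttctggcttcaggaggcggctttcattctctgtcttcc
Ndufa8, chr2:36049339-36049458, minus strand: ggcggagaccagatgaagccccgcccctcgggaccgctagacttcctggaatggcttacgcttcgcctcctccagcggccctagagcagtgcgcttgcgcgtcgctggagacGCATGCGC
Sdhb, chr4:140961151-140961270, plus strand: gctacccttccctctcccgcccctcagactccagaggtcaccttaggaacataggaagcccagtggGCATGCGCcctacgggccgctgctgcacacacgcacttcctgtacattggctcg

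Of the 87 members, 70 had an entry in the RefSeq promoter table, with 75 windows that run from 250 bases before to 50 bases after a start. GCGCATGC, on either strand, was in 10 of these 75 windows (13.3%), against 2.71% of all 32851 windows in the table. CCGGAAGT was in 5 (6.67%, against 3.89%), and TCAAGGTCA, the ESRRA motif, was in 2 (2.67%, against 0.423%). The core of the hypoxia response element, ACGTG, was in 19 member windows (25.3%, against 19.6%), among them those of Cox7a1, Cox8b, Sdha and Uqcr11. These matches describe letters only.

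Respiratory chain subunits made up between 6.37% and 10.1% of all transcripts, as TPM (a length-scaled share of transcripts), in the 40 retinas. On this scale the highest member was Ndufa4, a small protein now counted to complex IV, at 4760 ± 841 TPM (SD, n = 40). It was followed by Cox6c at 3610 ± 625 TPM and Cox8a at 3210 ± 413 TPM, both small complex IV subunits. Next came Atp5mpl and Atp5md, small membrane proteins of complex V, at 3060 ± 497 and 2870 ± 538 TPM. The tissue-restricted isoforms stood at the other end. Cox8b, Cox7a1 and Cox6a2, known as muscle isoforms, averaged 96.7, 31.4 and 3.01 TPM, and Cox6b2, known as a testis isoform, 37.2 TPM. By counts scaled to library size but not to length (CPM), the order at the top differed. Atp5b was then the highest at 2700 CPM, with Atp5a1 at 872, Cox4i1 at 840 and Ndufa4 at 719 CPM. Uqcrc1 and a second entry of the same symbol held identical values, Ndufa7 had near-equal copies, and Ndufb4, Ndufb4b and Ndufb4c are close relatives, so the levels of these members are uncertain.

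Total counts ran from 9160000 to 25800000 per library. Rod genes, which define a retina sample, had a mean level between 10.5 and 11.9 on the log2 CPM scale (CPM are counts scaled to the library size) in the 40 libraries, and none of the 14 was at 0 throughout a group. Y-linked genes and Xist showed that the 4 IgG retinas of P19 were all male and the 4 bispecific retinas of P19 all female, while P19 controls held 2 of each. At P17 the 4 anti-VEGFA retinas were all male and the 4 anti-ANG2 retinas all female, while the IgG retinas held 2 of each, so that sex moved with these antibody groups. In these P17 antibody comparisons 0 members were called before or after adjusting for Y-linked genes. With no call to lose, that adjustment cannot show the part of sex there. For OIR at P19, where sex also differed between the groups, 4 members were called without the adjustment. Only 1 of them, Cox4i2, was called with it. Crystallin Cryaa, a lens gene, exceeded 100 CPM in 5 libraries, of which 1 was an IgG retina of P17 and none a control.

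The level of the set in each retina is given as the mean log2 CPM over its 84 tested members. At P17 the 4 controls stood at 7.2, 6.99, 6.37 and 7.16, and the 4 OIR retinas with IgG at 7.1, 7.25, 7.54 and 7.36. The ranges overlapped, and control retina 3 was the lowest of all 40. At P19 the controls stood at 6.91, 7.1, 7.15 and 7, and the IgG retinas at 7.83, 7.53, 7.62 and 7.2, all above every control. In whole retina, fewer cells of a type and less RNA per cell cannot be told apart.

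**Figure D1:**
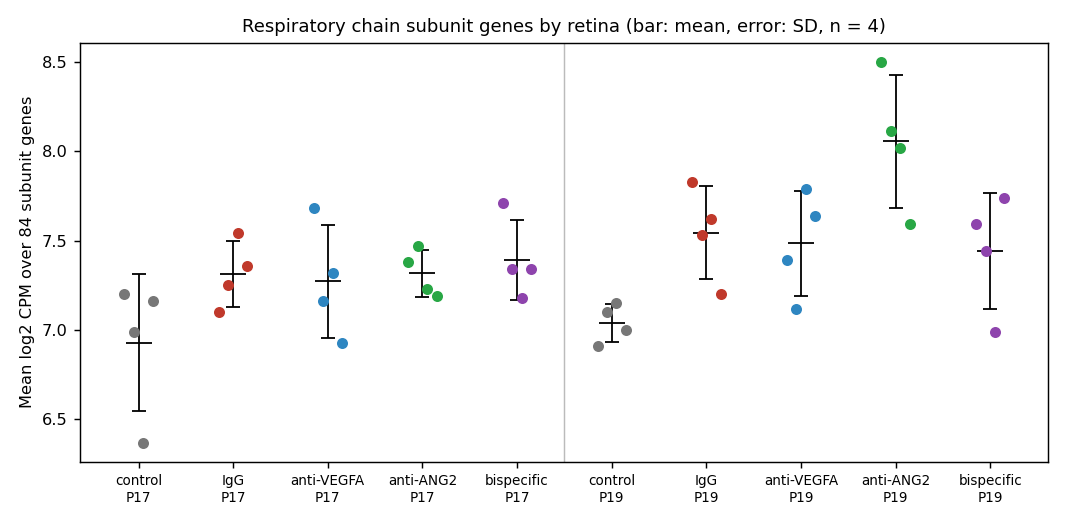
Mean log2 CPM over the 84 tested subunit genes (vertical axis) in each retina (points), by antibody group and age (horizontal axis), with the group mean (bar) and SD (error bar, n = 4). At P19 the IgG retinas, from 7.2 to 7.83, lie above the controls, and 3 of the 4 anti-ANG2 retinas lie at 8.02 or higher.

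In OIR retinas at P17, nearly the whole set sat slightly above the controls. The fitted log2 change was above 0 for 83 of 84 members, with a median of 0.39, against -0.05 over all 23495 genes. Only Cox4i2 rose past the threshold, a Benjamini-Hochberg adjusted p under 0.05 in edgeR's quasi-likelihood test (1.19% of members, against 2.11% of all genes called higher and 2.36% in either direction). At an unadjusted p under 0.05, 33 members were higher and 0 lower, where 9.73% of all genes were higher and 6.01% lower. The 1 member below 0 was Ndufa8, an accessory subunit of complex I (log2 -0.01). In 10 members (11.9%) the 4 OIR retinas all lay above the 4 controls, against 6.82% of all genes. Without control retina 3 the median was 0.24 and no member was called. On TPM, the set was level at this age: 7.38% ± 0.768 of transcripts in controls and 7.48% ± 0.461 with IgG (SD, n = 4 each).

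At P19 the difference was wider. The median log2 change was 0.59, against -0.05 over all genes, and 81 of 84 members were above 0. Cox4i2, Cox6b1, Ndufa5 and Uqcr11 rose, and no member fell (4.76% of members, against 0.821% of all genes called higher and 0.919% in either direction). At an unadjusted p under 0.05, 61 members were higher and 0 lower, where 7.68% of all genes were higher and 4.95% lower. In 46 members (54.8%) the 4 IgG retinas all lay above the 4 controls, against 6.64% of all genes. The share of transcripts was 6.73% ± 0.286 in controls, from 6.37% to 7.07%, and 8.23% ± 0.651 with IgG, from 7.3% to 8.8%, without overlap. The number of calls turned on single retinas: 0 without IgG retina 1 and 22 without IgG retina 4 (0.23% and 1.58% of all genes higher), with medians of 0.45 and 0.7.

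The change of scale matters for these values. On log2(TPM + 1) the median over all genes shifted to -0.22 at P17 and -0.15 at P19, and the members' medians were 0.04 and 0.31, so the set lay above the median gene by both measures at both ages. Members then above 0 numbered 52 at P17 and 73 at P19.

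The tests compared across ages gave no call. The OIR difference at P19 minus that at P17 had a median of 0.21 over members, and 0 members were called (0.00426% of all genes), with 0 higher and 1 lower at an unadjusted p under 0.05 (3.5% of all genes lower). That member was Sdha, and DESeq2 and limma called none either.

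Complex I, the NADH dehydrogenase, was split by role. Its 31 tested accessory subunits had a median log2 change of 0.4 at P17 and 0.65 at P19. Of these, 29 were higher at an unadjusted p under 0.05 at P19, where 7.68% of all genes were. Its 7 core subunits had medians of 0.17 and 0.24, and 2 passed at P19, Ndufs8 (fold 1.44, adjusted p = 0.19) and Ndufv2 (fold 1.36, adjusted p = 0.25), both carriers of iron-sulfur clusters. Accessory and core subunits also differed in transcript length (median 0.143 and 0.524, relative to the median tested gene). The difference between roles was not tested.

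Ndufa5, an accessory subunit of the matrix arm (ENSMUSG00000023089.12, chr6:24518666-24528013, minus strand, GRCm38), stood at 81, 95, 106 and 95.5 CPM in P19 controls. In P19 IgG retinas it stood at 206, 168, 170 and 123 CPM, all above the controls. The fold was 1.77 (log2 0.82 ± 0.21 SE, edgeR adjusted p = 0.043), and at P17 it was 1.35 (adjusted p = 0.31). Ndufs1, the largest iron-sulfur core subunit, did not follow. It stood at 199, 180, 178 and 184 CPM in P19 controls and 170, 218, 153 and 221 CPM with IgG, so that the IgG retinas spread to both sides of the controls (fold 1.03, adjusted p = 0.95). At P17 Ndufs1 was at 153 ± 18.6 CPM in controls and 203 ± 29.2 CPM with IgG (SD, n = 4), with overlap (fold 1.32, adjusted p = 0.1). Ndufv1, which binds the flavin that accepts electrons from NADH, had folds of 1.1 at P17 and 0.999 at P19.

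Complex II, succinate dehydrogenase, has no subunit encoded in the mitochondrial genome and also works in the tricarboxylic acid cycle. Its 4 members had a median log2 change of 0.37 at P17 and 0.3 at P19. At P17 all 4 were higher at an unadjusted p under 0.05 (9.73% of all genes higher), and at P19 none was (7.68%). Sdha, the flavoprotein that oxidises succinate, was the member farthest from the others. At P17 it stood at 425, 443, 367 and 389 CPM in controls and at 511, 532, 490 and 486 CPM with IgG, without overlap (fold 1.24, adjusted p = 0.2). At P19 it stood at 490, 605, 513 and 456 CPM in controls and at 491, 466, 436 and 502 CPM with IgG. The groups overlapped at P19, with a fold of 0.919 (adjusted p = 0.79). The test of the difference between the ages gave a log2 of -0.44 ± 0.18 SE and an edgeR adjusted p of 0.81.

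Complex III, which passes electrons from ubiquinol to cytochrome c, had a median log2 change of 0.43 at P17 and 0.63 at P19 over 8 members. Uqcr11, a small subunit (ENSMUSG00000020163.12, chr10:80402997-80406830, minus strand), stood at 120, 131, 135 and 122 CPM in P19 controls. In P19 IgG retinas it stood at 291, 222, 251 and 167 CPM, above all controls, with a fold of 1.83 (log2 0.87 ± 0.22 SE, edgeR adjusted p = 0.041). At P17 Uqcr11 also separated the groups, from 89 to 152 CPM in controls and from 154 to 232 CPM with IgG, and missed the threshold (fold 1.44, adjusted p = 0.21). The catalytic Rieske protein Uqcrfs1 had folds of 1.12 and 1.16 with overlapping groups. Of the 2 large core proteins, Uqcrc2 was above all controls at both ages (folds 1.4 and 1.26, adjusted p = 0.075 and 0.34), and Uqcrc1 had folds of 1.03 and 1.01.

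Complex IV, cytochrome c oxidase, reduces oxygen to water, and its 17 tested members held 2 of the 4 calls of P19. Their medians were 0.4 at P17 and 0.64 at P19. Cox6b1, on the intermembrane face of the complex (ENSMUSG00000036751.7, chr7:30616861-30626151, minus strand), stood at 185, 204, 222 and 184 CPM in P19 controls. In IgG retinas it stood at 423, 335, 374 and 266 CPM, above all controls, with a fold of 1.76 (log2 0.81 ± 0.21 SE, edgeR adjusted p = 0.049). Cox6b1, Ndufa5 and Uqcr11 each lost the call when any of 7 of the 8 retinas was left out.

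Complex V, the ATP synthase, had medians of 0.36 at P17 and 0.59 at P19 over 17 members and no call at either age. Members were split into an F1 group of 6 (Atp5a1, Atp5b, Atp5c1, Atp5d, Atp5e and Atp5o) and 11 others, mostly small membrane or stalk proteins. The F1 group holds the catalytic head, but Atp5o in it is itself a stalk protein. The median at P19 was 0.29 in the F1 group and 0.6 in the others. Median relative transcript length was 0.312 in the F1 group and 0.11 in the others, and the difference between them was not tested. Atp5b, the catalytic beta subunit, had a fold of 1.21 at P17, with IgG above all controls, and 0.982 at P19. Atp5md, a small membrane subunit, had a fold of 1.76 at P19, with all IgG retinas higher (adjusted p = 0.067).

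**Figure D2:**
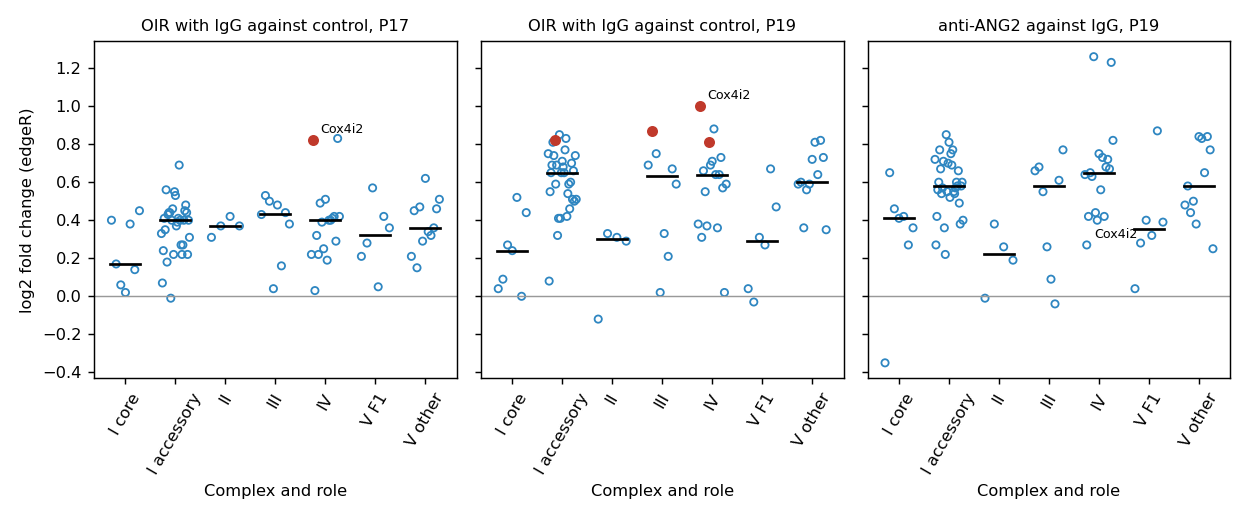
edgeR log2 fold change of each tested subunit gene (points) by complex and role (horizontal axis) in 3 comparisons, with the median of each role (bar) and called genes filled. At P19 the OIR medians range from 0.24 in complex I core subunits to 0.65 in its accessory subunits, and Cox4i2 is the highest point at 1.

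Cox4i2, the oxygen-sensitive isoform of complex IV subunit 4 (ENSMUSG00000009876.13, chr2:152754173-152765037, plus strand, GRCm38), was called at both ages. At P17 it stood at 39.3, 35, 21.6 and 39.8 CPM in controls and at 57.8, 57.3, 61.8 and 62.6 CPM with IgG, without overlap. The fold was 1.76 (log2 0.82 ± 0.2 SE, edgeR adjusted p = 0.015). At P19 it stood at 25.7, 28, 36.3 and 27.1 CPM in controls and at 72, 59.4, 58.3 and 44.3 CPM with IgG, again without overlap. That fold was 2 (log2 1 ± 0.2 SE, adjusted p = 0.0054), and the difference between the ages was 0.18 ± 0.28 SE on the log2 scale. Its common partner isoform Cox4i1 (ENSMUSG00000031818.12, chr8:120668222-120674207, plus strand) had folds of 1.16 and 1.3 with overlapping groups and was not called at either age.

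Cox4i1 and Cox4i2 transcripts are of near-equal length, so their TPM ratio compares isoforms within 1 retina. Cox4i2 made up 4.82, 4.91, 4.87 and 5.28% of Cox4 transcripts in P17 controls and 8.12, 7.42, 6.73 and 7.37% with IgG. At P19 it made up 4.47, 4.07, 4.97 and 4.05% in controls and 6.82, 6.91, 6.24 and 6.25% with IgG. Every OIR retina with IgG was above every control of its age. The differences were 2.44 and 2.16 percentage points, each with an exact two-sided permutation p of 0.0286, the smallest that 4 against 4 retinas allow. Adjusted over the 8 comparisons of this share, both were 0.0572.

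With antibody, the Cox4i2 share was lower than with IgG in all 3 groups at P19. It was 5.16% ± 0.168 with anti-ANG2, from 4.97% to 5.38%, and every value was below the IgG range. With the bispecific antibody it was 5.09% ± 0.683, from 4.28% to 5.76%, also below every IgG retina. Both differences, -1.4 and -1.47 points, had an exact permutation p of 0.0286 (adjusted 0.0572). With anti-VEGFA it was 5.21% ± 1.06, from 4.22% to 6.53%, which overlapped IgG (exact permutation p = 0.0857, adjusted 0.137). At P17 the antibody shares averaged between 6.55% and 6.83% with SDs from 1.27 to 1.77, and their ranges overlapped IgG (exact permutation p from 0.371 to 0.6). The 3 antibody groups of an age share the same 4 IgG libraries. At P19 the 4 IgG retinas were all male and the 4 bispecific retinas all female, so sex and antibody cannot be told apart there. The anti-ANG2 retinas of P19 held 2 of each sex. The share was not adjusted for sex.

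The share and the level of Cox4i2 went apart with anti-ANG2 at P19. Its level there was 94.6, 73.9, 68.3 and 45.4 CPM, on average above IgG (fold 1.21, adjusted p = 0.61), while Cox4i1 had a fold of 1.56 (adjusted p = 0.15). With anti-VEGFA at P19 Cox4i2 stood at 51, 38.2, 46.5 and 44.5 CPM (fold 0.771), and with the bispecific antibody at 55.7, 52.8, 29.5 and 54.8 CPM (fold 0.825). Neither level differed from IgG in the edgeR test.

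**Figure D3:**
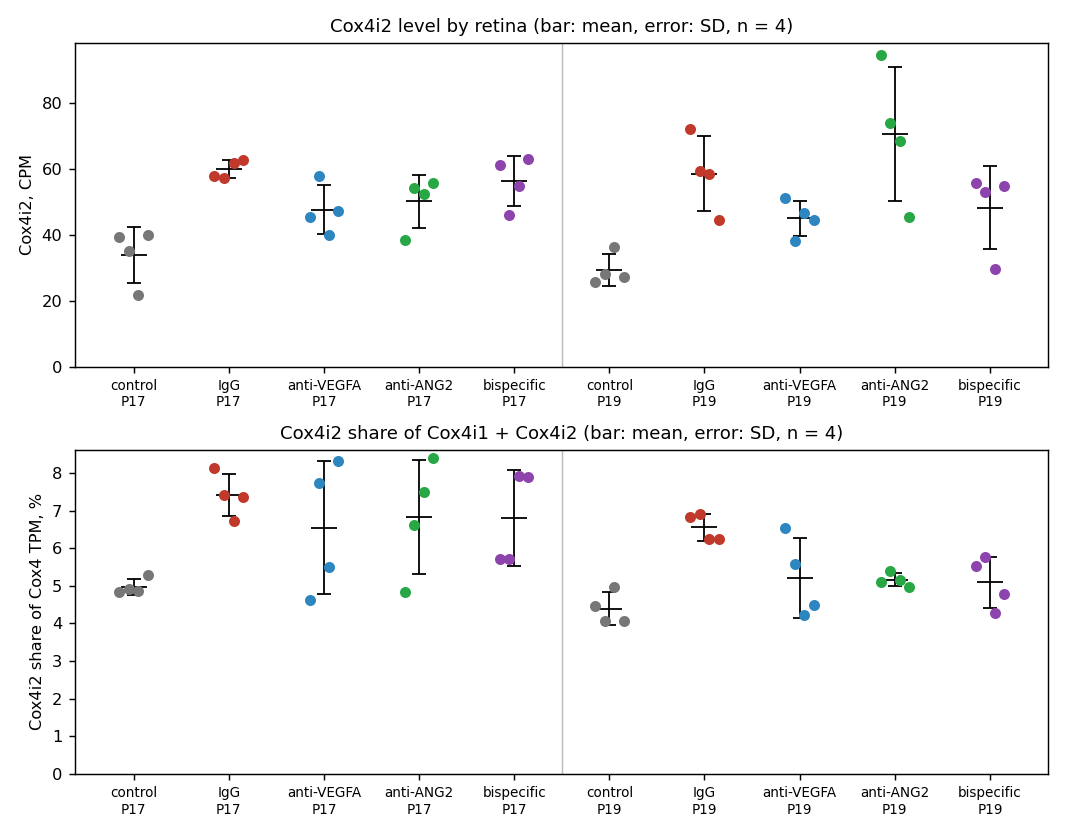
Cox4i2 in each retina (points) by group and age (horizontal axis), as CPM (upper panel) and as a percentage of Cox4i1 plus Cox4i2 TPM (lower panel), with mean (bar) and SD (error bar, n = 4). At P19 the share is between 6.24% and 6.91% with IgG and between 4.97% and 5.38% with anti-ANG2.

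Several measures moved with Cox4i2. Ndufa4l2, a hypoxia-induced relative of Ndufa4 that is also known as a pericyte gene, is not a member. It rose from 7.32 ± 1.41 to 80.3 ± 12 CPM at P17 (SD, n = 4, edgeR adjusted p = 1.1e-11). At P19 it rose from 2.05 ± 0.376 to 46.6 ± 13.9 CPM (edgeR adjusted p = 2.4e-14). Over the 40 retinas, deviations of Cox4i2 from its group means followed those of Ndufa4l2 (Pearson r = 0.85, Spearman rho = 0.79, permutation p = 1e-05 each, the smallest possible, adjusted 2e-05 over 11 relations). Without the 2 farthest retinas r was 0.78, and within P17 and P19 it was 0.78 and 0.9. Cox4i2 deviations also followed the mean of the other members (r = 0.69, rho = 0.55), with r of 0.44 within P17 and 0.88 within P19. Pericytes, the vessel wall cells in which Cox4i2 is known to be expressed, were followed with 10 marker genes, none of which was at 0 throughout a group. Their summed level was from 76 to 95.1 CPM in P17 controls and from 134 to 159 CPM with IgG, and from 66.7 to 83.7 and from 119 to 154 CPM at P19. The markers were not uniform: their median log2 change was 0 at P17, with 5 of 10 markers above 0, and 0.49 at P19, with 6 of 10 above 0. Rgs5 and Higd1b were called higher at both ages and Acta2 at P17, and the other markers were not called. Within groups, Cox4i2 did not follow the level of these markers (r = -0.2, rho = -0.11, permutation p = 0.2 and 0.5, adjusted 0.3 and 0.6, n = 40). The r was -0.16 without the 2 farthest, -0.27 within P17 and -0.14 within P19. As the markers were not uniform, their level does not stand for pericyte number. The part of pericyte number in the Cox4i2 change was not tested.

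Pigment epithelium and lens markers also differed between the P17 groups. The 10 pigment epithelium markers summed to between 853 and 1490 CPM in P17 controls and between 1700 and 2590 CPM with IgG. One of them, Rlbp1, is also on the Müller glia list, so this sum does not measure pigment epithelium RNA alone. The Müller glia list summed to between 2810 and 4980 CPM in P17 controls and between 4980 and 5610 CPM with IgG. The 10 lens markers summed to between 6.25 and 12.2 CPM in these controls, with Lim2 at 0 in all 4, and to between 11.6 and 2870 CPM with IgG. With both marker levels as covariates, Cox4i2 had a log2 change of 0.56 (adjusted p = 0.49) at P17 and 1.01 (adjusted p = 0.0025) at P19. At P17 the Cox4i2 call was also lost without control retina 3 (log2 0.65, adjusted p = 0.13) or IgG retina 3 (0.8, adjusted p = 0.051), without the libraries over 100 CPM of Cryaa (0.8, adjusted p = 0.057), and on log2(TPM + 1) and log2(TPM + 0.1) (adjusted p = 0.054 and 0.063). At P19 it was lost without IgG retina 1 (0.87, adjusted p = 0.056) and held in the 7 other such fits.

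Other cell type markers moved with OIR as well. Of 9 microglia and macrophage markers, 8 were called higher at each age (median log2 1.9 at P17 and 1.96 at P19). They summed to between 70.7 and 122 CPM in P17 controls and between 254 and 416 CPM with IgG, and to between 73.7 and 109 and between 248 and 327 CPM at P19, without overlap. Of 5 red blood cell genes, 4 were called higher at P17 (median 1.74, from 92.5 to 248 CPM in controls and from 163 to 1500 CPM with IgG) and 0 at P19 (4 above 0, 0 at an unadjusted p under 0.05). The cone markers Gnat2, Pde6h and Pde6c, of 9, were called higher at P17, where the list summed to between 2020 and 2430 CPM in controls and between 2910 and 3600 CPM with IgG, and no cone marker was called at P19 (3 higher at an unadjusted p under 0.05). None of these genes was at 0 throughout a group. Of 9 endothelial markers, Cldn5 and Emcn were called higher at P19 (median log2 0.69), and of 8 Müller glia markers Apoe was (0.42). Gng13, of 10 bipolar cell markers, was called higher at P19 (median -0.02), and Nefh, of 9 ganglion cell markers, lower (-0.26). No marker of these further lists was called at P17. The part of all these cells in the members' OIR difference was not tested.

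The other isoforms of complex IV stayed minor throughout. Over the 40 retinas Cox7a1 made up 3.05% ± 0.674 of the Cox7a1 and Cox7a2 TPM, and Cox8b 2.91% ± 1.27 of the Cox8a and Cox8b TPM (SD). Cox6b2 made up 1.61% ± 0.319 beside Cox6b1, and Cox6a2 0.194% ± 0.182 beside Cox6a1. Cox8b was at 2.96, 2.84, 1.4 and 1.55 CPM in P17 controls and at 3, 3.58, 5.94 and 3.11 CPM with IgG. These ranges did not overlap, and the change was not called (fold 1.78, adjusted p = 0.39). At P19 Cox8b was at 5.17 ± 2.56 CPM in controls and 5.25 ± 1.3 CPM with IgG (SD, n = 4). Cox6a2 exceeded 3 CPM in 2 retinas, 1 with anti-VEGFA and 1 with the bispecific antibody at P17. Those 2 retinas had summed levels of 186 and 460 CPM over 10 striated muscle genes, where no other retina exceeded 30 CPM.

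With anti-ANG2 at P19 the set stood highest of all groups. The mean log2 CPM over members was 8.5, 8.11, 8.02 and 7.59 in the 4 retinas, against 7.83, 7.53, 7.62 and 7.2 with IgG. Anti-ANG2 retina 4 fell inside the IgG range and the other 3 above it. The median log2 change was 0.56, against 0.03 over all genes, and 81 members were above 0. No member was called by edgeR (0.0979% of all genes called), and the smallest adjusted p was 0.097. At an unadjusted p under 0.05, 64 members were higher and 1 lower, where 6.64% of all genes were higher and 5.86% lower. In 2 members (2.38%) the 4 anti-ANG2 retinas all lay above the 4 IgG retinas, a share near the 1.97% of all genes. DESeq2 called 35 members, all higher, where it called 3.75% of the genes to which it gave an adjusted p higher. limma-voom called 1 higher (0.0468% of all genes). limma on log2(TPM + 1) called 4 higher and 2 lower (2.46% of all genes in either direction, 0.119% higher), and on log2(TPM + 0.1) 5 higher and 3 lower (3.61% and 0.183%). On log2(TPM + 1) the all-gene median shifted to -0.19 and that of the members was 0.14. Without anti-ANG2 retina 4 edgeR called 30 members, all higher (1.09% of all genes higher), and without anti-ANG2 retina 1 the median was 0.38.

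Single members differed in how far they followed the set. Atp5e, the epsilon subunit of the F1 head, had the smallest p, at 130, 98, 118 and 81.8 CPM with IgG and 276, 199, 188 and 119 CPM with anti-ANG2 (fold 1.83, adjusted p = 0.097). Ndufs1 was the 1 member lower at an unadjusted p under 0.05. It stood at 153, 150, 137 and 156 CPM with anti-ANG2, near the lowest IgG retina at 153 CPM and below the other 3 (fold 0.783, adjusted p = 0.24). Sdha was at 489, 489, 438 and 473 CPM, close to IgG (fold 0.996). By role, the medians ran from 0.22 in complex II and 0.35 in the F1 group of complex V up to 0.65 in complex IV. Complex III and the complex I accessory subunits were at 0.58. These roles also differed in median relative transcript length, which was 0.391 in complex II and 0.0966 in complex IV.

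Anti-ANG2 was also set against the other antibodies at P19, in comparisons added after these values were seen. Against anti-VEGFA the median was 0.61 and 83 of 84 members were above 0. Atp5k, a small membrane subunit of complex V, and Ndufv3, an accessory subunit of complex I, were called higher (2.38% of members, against 0.238% of all genes called in either direction and 0.0553% higher). At an unadjusted p under 0.05, 70 members were higher, where 8.92% of all genes were. Atp5k was at 40.9, 33.1, 54.6 and 57.8 CPM with anti-VEGFA and at 135, 106, 96.1 and 56.2 CPM with anti-ANG2, where retina 4 lay inside the anti-VEGFA range (log2 1.08, adjusted p = 0.033). Against the bispecific antibody the median was 0.67 and no member was called by edgeR (0% of all genes), with 69 members higher at an unadjusted p under 0.05, where 6.97% of all genes were.

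The other antibody comparisons gave no call among members by edgeR, DESeq2, limma-voom or limma on TPM. Anti-VEGFA had medians of -0.02 at P17 and at P19, and 0% of all genes was called at either age. At an unadjusted p under 0.05, 1 member, Cox6a2, was higher at P17 (2.94% of all genes higher) and 5 were lower at P19 (6.07% of all genes lower). Those 5 were Uqcrfs1, Sdha, Atp5a1, Ndufs1 and Ndufa10. Uqcrfs1 was at 265, 208, 198 and 192 CPM with IgG and at 195, 118, 182 and 143 CPM with anti-VEGFA, with overlap (fold 0.741, adjusted p = 0.37). Anti-ANG2 at P17 had a median of 0.03, with 0 members higher and 3 lower at an unadjusted p under 0.05, where 2.84% of all genes were lower and 0% called. In 10 members (11.9%) the anti-ANG2 retinas of P17 all lay below the 4 IgG retinas, against 4.24% of all genes. The 3 were Sdha, Uqcrfs1 and Ndufs1, and Sdha at 367, 364, 418 and 462 CPM lay below all 4 IgG retinas (fold 0.798, adjusted p = 0.56). The bispecific antibody had medians of 0.08 at P17 (0% of all genes called) and -0.11 at P19 (0.0468% called), with 1 member higher at P17 (2.29% of all genes higher) and 1 lower at P19 (3.64% lower) at an unadjusted p under 0.05. The first was again Cox6a2, whose level at P17 rested on the retinas with striated muscle RNA. The second was Uqcrc2, at 270, 262, 152 and 278 CPM against 371, 297, 297 and 278 CPM with IgG (fold 0.774, adjusted p = 0.51).

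Age alone gave no call in edgeR, DESeq2 or limma-voom. From P17 to P19 the controls had a median of 0.05 (0.0979% of all genes called), with Cox8b, Sdha and Ndufs1 higher at an unadjusted p under 0.05 (3.73% of all genes higher), and limma on log2(TPM + 1) called 1 member lower (0.536% of all genes). Sdha was above all P17 controls in each P19 control (fold 1.27, adjusted p = 0.53). The IgG retinas had a median of 0.25 (0.00851% of all genes called), with 5 members higher at an unadjusted p under 0.05 (2% of all genes): Atp5k, Atp5md, Ndufa1, Ndufa3 and Ndufb1.

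The members moved together from retina to retina within a group. Over deviations from group means in the 40 libraries, the 82 members of at least 5 CPM made 3321 pairs, with a median r of 0.88 and a range from -0.17 to 0.99. The pairs over 0.5 were 92.8%. Sdha and Ndufs1 stood apart, with r of 0.02 and 0.08 to the median of the other members, then Cox8b with 0.47, Atp5a1 with 0.63 and Cox4i2 with 0.68. Among 12204 other genes, those most like the set included Rplp1 (0.99), Timm8b (0.98), Nedd8 (0.98) and Rps16 (0.98). The points of these correlations share library, depth and transcript length.

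Most members have short transcripts. Relative length was taken as the ratio of count to TPM, set to 1 for the median tested gene, and genes were divided into 5 length classes of equal size. Class 1, the shortest, held 72 of the 84 members, class 2 held 8 and class 3 held 4. Among those least like the set, Sdha was at 1.08, Ndufs1 at 1.02 and Atp5a1 at 0.903, while Cox8b at 0.0323 and Cox4i2 at 0.174 were short. The fourth member of class 3, Ndufa11, at 1.01, followed the set (r = 0.97). Other genes of at least 50 CPM were set beside the members in the same classes. In class 1 their median log2 change was 0.35 at P17, 0.39 at P19 and 0.36 with anti-ANG2 at P19. In class 5 it was -0.09, -0.11 and -0.17. Members of class 1 had medians of 0.4, 0.6 and 0.58 in these comparisons, and those of class 3 0.28, 0.04 and 0.02. In class 1, 44.7%, 55.1% and 49.7% of the other genes were higher at an unadjusted p under 0.05. Of the 72 members in this class, 28, 56 and 59 were. The members' share was thus below that of the other genes at P17, and above it at P19 and with anti-ANG2.

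**Figure D4:**
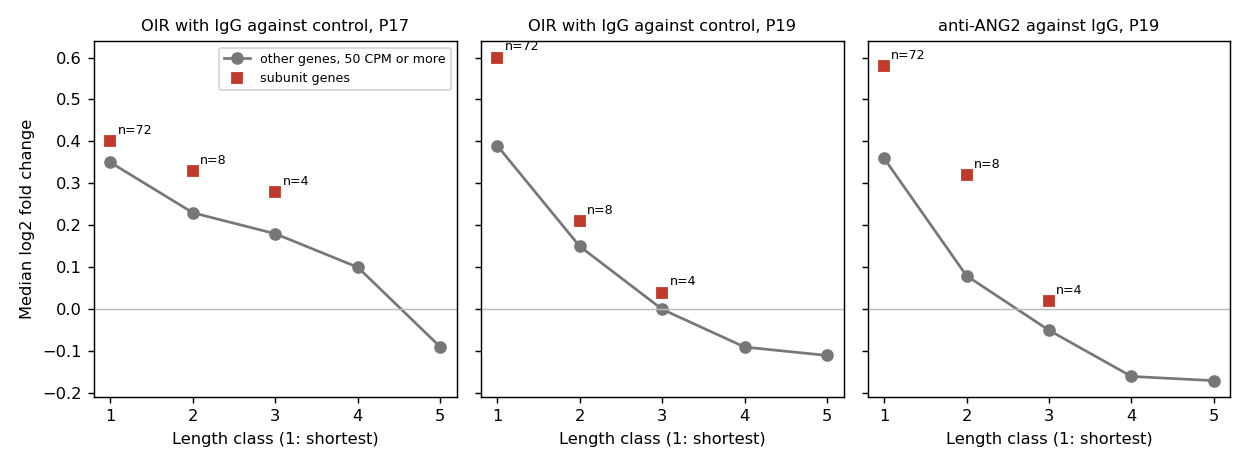
Median edgeR log2 fold change (vertical axis) of subunit genes (squares, with their number) and of other genes of at least 50 CPM (circles) by class of relative transcript length (horizontal axis, 1 is the shortest) in 3 comparisons. Other genes go from 0.39 in class 1 to -0.11 in class 5 with OIR at P19, and members from 0.6 in class 1 to 0.04 in class 3.

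The tilt of each library by length was measured as the slope of log2 CPM deviations on log2 relative length, over genes that are neither members nor ribosomal protein genes. A negative slope means more of the short transcripts. The slope was 0.125 ± 0.121 in P17 controls and -0.0539 ± 0.066 with IgG, and 0.109 ± 0.0419 and -0.0534 ± 0.0966 at P19 (SD, n = 4). With anti-ANG2 at P19 it was -0.333, -0.246, -0.157 and 0.0172, so the lowest slope was in the retina with the highest member level and the highest slope in that with the lowest. Control retina 3 of P17, the lowest in members, had the highest slope, 0.299. Within groups, the mean level of the members went with the slope (r = -0.91, rho = -0.87, n = 40; -0.9 without the 2 farthest, -0.91 within P17 and -0.93 within P19). It went with the mean of the cytosolic ribosomal protein genes at r = 0.99 and rho = 0.99, which are also short (0.99 without the 2 farthest and within each age). With the mitochondrial genome's share of counts r was 0.79 and rho 0.82 (0.81, 0.8 and 0.81), and with the rod markers 0.81 and 0.82 (0.79, 0.76 and 0.85). With the library total r was 0.19 and rho 0.09.

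**Figure D5:**
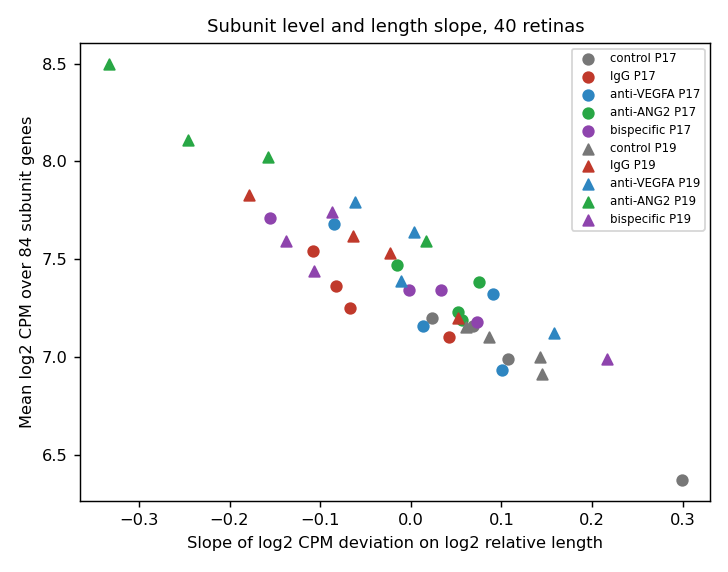
Mean log2 CPM over the 84 subunit genes (vertical axis) against the slope of log2 CPM deviations on log2 relative transcript length over other genes (horizontal axis) in the 40 retinas, coloured by group with the symbol for age. The points run from anti-ANG2 retina 1 of P19, at 8.5 and -0.333, to control retina 3 of P17, at 6.37 and 0.299.

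With the slope as a covariate, chosen after seeing these values, the members' median was -0.03 at P17, 0.14 at P19 and 0.21 with anti-ANG2 at P19, so that its sign turned at P17. Cox4i2 then had a log2 change of 0.43 at P17 (adjusted p = 0.14) and 0.6 at P19 (adjusted p = 0.031), where it was the 1 member called. Slope and group moved together and cannot be fully told apart.

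Other short or mitochondrial gene groups were counted from the same fit. Of 83 tested cytosolic ribosomal protein genes, 0 were called higher by edgeR at P17 (52 at an unadjusted p under 0.05), 15 at P19 and 0 with anti-ANG2 at P19 (75 unadjusted), with medians of 0.44, 0.67 and 0.64. The 13 protein genes of the mitochondrial genome, which supply the remaining subunits of the chain, had medians of 0.49, 0.13 and 0.77 and no edgeR call, with 6, 0 and 13 higher at an unadjusted p under 0.05. COX1, the catalytic subunit of complex IV, was at 8400 ± 2180 CPM in P17 controls and 11200 ± 2250 CPM with IgG, and at 11300 ± 2330 CPM with IgG and 18100 ± 5660 CPM with anti-ANG2 at P19. The mitochondrial genome's share of counts at P19 was 4.8% ± 0.2 in controls and 4.8% ± 0.861 with IgG (SD, n = 4). With anti-ANG2 it was 6.88% ± 1.4, with anti-VEGFA 6.68% ± 1.51 and with the bispecific antibody 4.79% ± 0.775. The 14 rod genes had medians of 0.34, 0.05 and 0.49 and no edgeR call, with 6, 2 and 11 higher at an unadjusted p under 0.05. Their summed level was between 57100 and 83000 CPM with IgG and between 83000 and 124000 CPM with anti-ANG2 at P19, and its part in the member levels was not tested. In the anti-ANG2 comparison the 10 bipolar cell markers had a median of -0.59, with 6 lower at an unadjusted p under 0.05 and Isl1 called lower. They summed to between 1280 and 1460 CPM with IgG and between 882 and 1070 CPM with anti-ANG2. None of the 8 Müller glia markers was above 0 on the log2 scale (median -0.47, 4 lower at an unadjusted p under 0.05, 0 called by edgeR), with sums from 5570 to 6220 CPM and from 3840 to 5940 CPM. The part of these cells was not tested either.

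The genes that build or feed the chain were less uniform. The 46 assembly factors had medians of 0.28 at P17, 0.23 at P19 and 0.17 with anti-ANG2 at P19, with no call by edgeR and 13, 12 and 14 higher at an unadjusted p under 0.05. Among 15 electron carriers and related genes no gene was called by edgeR (1 to 2 at an unadjusted p under 0.05 in each comparison), and Cycs, cytochrome c, had folds of 1.42, 1.22 and 1.37. Of 16 tricarboxylic acid cycle genes, Dld (fold 1.6, adjusted p = 0.0017) and Sucla2 (fold 1.53, adjusted p = 0.0045) rose at P17, and none was called at P19. The 15 regulators of mitochondrial biogenesis had medians of -0.06, -0.15 and -0.15 and no call, with Ppargc1a, the PGC-1 alpha coactivator, at folds of 1.03, 0.95 and 0.902. Of 11 genes listed for the remodelling of mitochondria in hypoxia, Hif1a and Mxi1 among them, 6 rose at P17: Ndufa4l2, Cox4i2, Higd1a, Bnip3, Bnip3l and Fam162a. Cox4i2 is also a member, so its calls are the same ones given above. Bnip3, a mitophagy receptor, rose from 302 ± 81 to 756 ± 148 CPM (SD, n = 4; adjusted p = 9e-06). At P19, 3 of the 11 rose, Ndufa4l2, Cox4i2 and Fam162a, and with anti-ANG2 at P19 none was called, with 1 higher and 1 lower at an unadjusted p under 0.05. Atpif1, the inhibitor of ATP synthase, had folds of 1.29, 1.67 and 1.36 and was not called.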

How the data were processed

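RNA from 40 single mouse retinas (10 groups of 4) was analysed. The authors deposited RSEM expected counts and TPM values for 42037 gene symbols, made with STAR 2.7.10a and RSEM 1.3.3 on genome build GRCm38.p4, per the submitters' processing notes. The sources used here do not name the annotation. Libraries were made with SMART-Seq mRNA and Nextera XT, per the labels' protocols, which mention neither strand nor molecular identifiers, so antisense or overlapping genes and duplicate reads cannot be told apart. Fractions occurred in 15.7% of the expected counts above 0, and counts were rounded for the fits.

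Counts were fitted over all 40 libraries with edgeR 4.0.16 (R 4.3.3; TMM factors, filter by group, robust quasi-likelihood test), which left 23495 genes. Benjamini-Hochberg adjusted p-values cover all of them, within each of 11 comparisons. The script was tested on simulated data. CPM values are means ± SD over 4 retinas. log2 CPM uses a prior count of 2, and correlations use deviations from group means with 100000 resamples within groups. Coordinates of genes come from GENCODE on GRCm38, and promoters from RefSeq on GRCm38.p6. Mitochondrial genome genes were matched by their names in the files (COX1, ND1 and so on).

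Members named with values are core or rate-setting subunits, those with the smallest p or a call in a comparison, those farthest from their complex, the highest and lowest by TPM, and complex IV isoforms; others named were chosen after their values were seen (Ndufv3 and the members listed by length or likeness among them). The members and all gene lists were chosen with earlier results of these data known. Alternatives were DESeq2 1.42.0, limma 3.58.1 (voom with sample weights; trend on log2 TPM with pseudocounts of 1 and 0.1), RLE factors, no filter, the compared groups alone, covariates for Y-linked genes, neighbouring tissue or mitochondrial share, and each retina left out. The length slope, removal of libraries rich in Cryaa, comparisons between antibodies and the Cox4i2 share by counts were added after seeing the data. No 2 libraries held identical values. Some items are not reported here.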

Additional observations from a re-analysis of the deposited data

Results flagged for a closer look

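In 150 groups of 4 values, the highest or lowest retina was examined for its gap to the nearest of the other 3, relative to the group's range. A gap above Dixon's critical value occurred in 8 groups, and chance gives about 1 in 20. In bispecific retina 3 of P19, the length slope was 0.217, where the other 3 ran from -0.138 to -0.0867. In the same retina Cox4i2 was at 29.5 CPM (others from 52.8 to 55.7) and Sdha at 350 CPM (others from 480 to 506). Cox6a2 was at 3.76 CPM in anti-VEGFA retina 3 of P17 (others from 0.212 to 0.81) and at 3.02 CPM in bispecific retina 2 of P17 (others from 0.592 to 0.966). These were the 2 retinas with 186 and 460 CPM of striated muscle genes. Cox7a1 was at 1.95 CPM in control retina 4 of P17 (others from 0.932 to 1.08) and at 5.58 CPM in anti-ANG2 retina 1 of P19 (others from 2.72 to 2.97). Cox8b was at 6.03 CPM in anti-VEGFA retina 1 of P17 (others from 4.06 to 4.38).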

How the results depend on the processing

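Counts of called members depended on the model. For OIR at P17 (1 member), DESeq2 called 3 (6.56% of genes with an adjusted p), limma-voom 5 (4.41% of all genes) and the fit with the length slope 2, both lower (1.05%), and 0 were called with pigment epithelium and lens covariates, without the libraries rich in Cryaa, or on log2(TPM + 0.1). For OIR at P19 (4 members), DESeq2 called 12 (3.1%), limma-voom 47 (4.78%), edgeR on the compared groups alone 47 (4.1%), the mitochondrial share covariate 54 (3.38%), and log2(TPM + 1) and log2(TPM + 0.1) 27 each (1.51% and 1.63%), where the main test called 0.919% of all genes. RLE factors, no filter, the Y-linked covariate, the length slope and the removal of Cryaa-rich libraries each left 1, Cox4i2 (0.404% to 0.766% of all genes called). For anti-ANG2 at P19 (0 members), DESeq2 called 35 (5.42%), the Y-linked covariate 1 (0.111%), limma-voom 1 (0.0979%), log2(TPM + 1) 6 (2.46%) and log2(TPM + 0.1) 8 (3.61%). For control retinas by age 1 was called on log2(TPM + 1) and 1 on log2(TPM + 0.1), and for IgG retinas by age 1 with the length slope. The causes were not tested.

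Leaving out 1 retina at a time gave 0 to 4 called for OIR at P17, 0 to 22 for OIR at P19, 0 to 30 for anti-ANG2 at P19 and 0 to 0 in the other comparisons. The Cox4i2 share difference then ran from 2.2 to 2.67 points for OIR at P17 and from 2.05 to 2.36 at P19. At P19 it ran from -1.51 to -1.28 for anti-ANG2, from -1.69 to -1.2 for the bispecific antibody and from -1.79 to -1.02 for anti-VEGFA. At P17 it ran from -1.1 to 0.0858, -0.981 to -0.243 and -1.46 to -0.219 in the same order. With 3 against 4 retinas the smallest exact permutation p is 0.0286.

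Replicate numbers are not stated to pair the samples, and pairing was not tested. Same-numbered retinas had correlations from -0.23 to 0.25 in their deviations. With anti-ANG2 against IgG at P19, 3 of 4 retinas matched their own number best, and 0 or 1 did in the other comparisons. With the replicate block, 1 member was called for OIR at P17, 1 at P19 and 0 in the other comparisons. Of the named members' values, 2 changed sign past the threshold: Uqcrc1 for OIR at P17 was -0.3 on log2(TPM + 1) (adjusted p = 0.05), and Atp5a1 with anti-ANG2 at P19 was -0.33 on log2(TPM + 0.1) (adjusted p = 0.049), on a scale whose all-gene median was itself lower. A further 160, over 28 members, changed sign without a call on either side, at alternative values from -0.36 to 0.1. Direction and side of the threshold were kept by 1711, 47 lost the call and 89 gained one. Cox7b2, Cox8c and Ndufa11b were too low for any comparison.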
